A study of Mus musculus with 6 samples.

Results

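The 10 genes described here carry signals of insulin and the insulin-like growth factors (IGFs). They are the receptor genes Insr, Igf1r and Igf2r, the ligand genes Igf1 and Igf2, the adaptor genes Irs1 and Irs2, and the binding protein genes Igfbp2, Igfbp4 and Igfbp5. They were listed by name for the setting of maternal diabetes, and are 10 of the 22180 genes with a probe set of their own. RNA was measured on 6 Affymetrix Mouse Gene 2.0 ST arrays, 1 per culture, 3 labelled MG and 3 labelled PBS. MG stands for methylglyoxal, a reactive by-product of glycolysis, a reading that rests on the study's title. The cultures were neurospheres from the subventricular zone of 2-month-old offspring of outbred CD1 mice. In the MG group the mothers had received 0.5 mg/kg MG by 2 intraperitoneal injections a day from gestational day 12 until they gave birth, and in the PBS group they had received PBS on the same schedule. All 6 cultures had grown for 7 days in serum-free medium with EGF, FGF2, heparin and B27, a supplement whose standard formulation contains insulin. The labels do not say which formulation was used. A neurosphere is a free-floating ball of cells that descends from a stem or progenitor cell, so the cultures model such cells outside their niche. The labels give neither the sex of the animals nor whether animals of a group shared a mother, so a difference between litters and the injections cannot be told apart.

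Insulin and IGF1 act through the receptor tyrosine kinases encoded by Insr and Igf1r, which pass the signal to the adaptors IRS1 and IRS2, to PI3-kinase and to AKT. AKT in turn raises mTORC1 activity and keeps the FOXO transcription factors out of the nucleus. The IGF2 receptor is not a tyrosine kinase: it takes up IGF2 and sends it to lysosomes. The IGF-binding proteins hold IGFs outside cells and can block or prolong their action. In the adult subventricular zone, IGF2 from the choroid plexus and the vessels is known to support neural stem cells, and IGF1 promotes the oligodendrocyte lineage.

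All 10 genes had group means above the reference level defined below, Igf1 only just, with MG replicate 3 under it. None of the 10 differed between MG and PBS cultures beyond the spread within groups. The pattern that stood out was a difference between arrays of the same group: Igfbp5, and less so Igfbp4, was low on the array numbered 3 of both groups. With 1 array per culture, a difference of culture and one of sample or array handling cannot be told apart. The values are log2 expression values as deposited, so 1 unit is a 2-fold step, and values of different genes are not compared because each rests on its own probe set. To describe levels, a reference level of 5.02 was taken, the 95th percentile of the mean values of 1390 olfactory and vomeronasal receptor genes. All 10 genes had group means above it, as had 13704 of the 22180 genes. All 11 neural stem cell and radial glia markers cleared it in MG and in PBS, and Sox2 lay between 10.99 and 11.27.

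**Figure D1:**
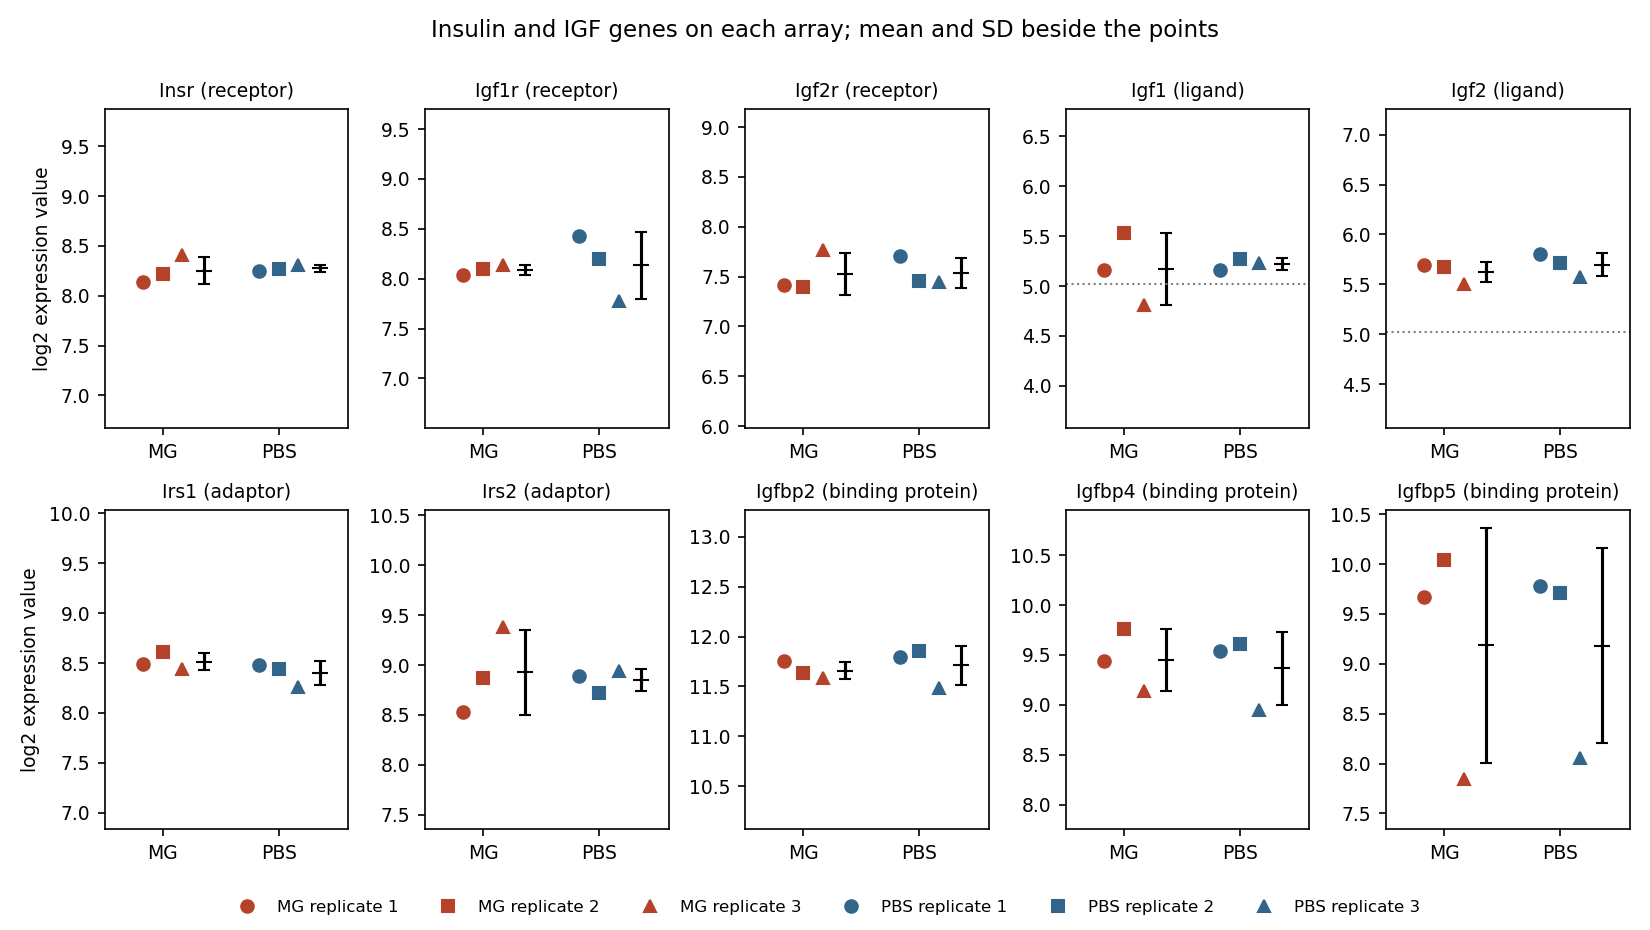
Log2 expression values of the 10 genes on the 6 arrays, MG on the left and PBS on the right of each panel, with 1 symbol per replicate number, the bar gives the mean and SD of 3 arrays, the dotted line the reference level of 5.02, and all panels span the same number of log2 units. The groups overlap in every panel, and the arrays numbered 3 (triangles) are the lowest of both groups for Igfbp5, at 7.84 in MG and 8.05 in PBS.

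Sequences upstream of the start site are shown for Igfbp5 and Igfbp4, the genes that were lowest on the arrays numbered 3 by the widest margins, and for Irs2, which was highest there in the deposited values. They are the 250 bases before the RefSeq start site on GRCm38.p6, read 5′ to 3′ on the gene's strand. The window of Igfbp5 is chr1:72874866-72875115, minus strand, that of Igfbp4 is chr11:99040994-99041243, plus strand, and that of Irs2 is chr8:11008930-11009179, minus strand. Capitals mark matches, on either strand, to the TATA box TATAAA, the GC box GGGCGG, the E-box CACGTG, the AP-2 motif GCCNNNGGC or the FOXO motif GTAAACA. The matches in these 3 windows do not overlap each other.
Igfbp5: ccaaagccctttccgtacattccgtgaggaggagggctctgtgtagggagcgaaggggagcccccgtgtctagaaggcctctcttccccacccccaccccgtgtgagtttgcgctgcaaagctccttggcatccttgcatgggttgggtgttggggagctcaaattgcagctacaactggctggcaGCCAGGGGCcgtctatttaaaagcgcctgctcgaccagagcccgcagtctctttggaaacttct
Igfbp4: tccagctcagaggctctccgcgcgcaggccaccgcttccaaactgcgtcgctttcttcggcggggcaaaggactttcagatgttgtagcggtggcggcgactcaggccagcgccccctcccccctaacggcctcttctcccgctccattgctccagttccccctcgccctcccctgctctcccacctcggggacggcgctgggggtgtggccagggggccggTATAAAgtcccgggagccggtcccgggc
Irs2: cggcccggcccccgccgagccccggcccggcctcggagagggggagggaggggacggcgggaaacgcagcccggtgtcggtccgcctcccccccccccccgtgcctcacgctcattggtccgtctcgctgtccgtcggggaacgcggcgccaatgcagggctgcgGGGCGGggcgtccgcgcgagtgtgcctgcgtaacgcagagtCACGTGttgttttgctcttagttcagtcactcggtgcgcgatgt
Igfbp5 held 1 AP-2 match, which begins 64 bases before the start site, a motif found in 13.7% of all 32851 promoter windows of this length. Igfbp4 held 1 TATA box, which begins 28 bases before the start site and is present in 12.4% of the windows. Irs2 held a GC box at 85 and an E-box at 44 bases before the start site, motifs found in 32.7% and 6.02% of the windows. No motif searched was common to these 3 windows. The FOXO motif GTAAACA, present in 3.17% of all windows, was in none of the 13 windows of the 9 genes with an entry. Other sequences that FOXO factors can bind were not searched. The E-box was in windows of Irs1, Irs2, Igfbp2 and Igf2r. A match says only that these letters are present.

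The receptor genes had nearly equal means in both groups. Insr, the insulin receptor, had 8.14, 8.22 and 8.40 in MG cultures, against 8.25, 8.27 and 8.31 in PBS cultures. The 3 PBS values lay within the range of the MG values. Its mean was 8.25 ± 0.14 in MG and 8.28 ± 0.03 in PBS (SD, n = 3 each), and MG minus PBS came to -0.02 on the log2 scale (SE 0.12, 95% interval -0.30 to 0.25, limma). On the linear scale that interval runs from 1.23-fold lower to 1.19-fold higher in MG. Without MG replicate 1 the difference was 0.03.

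Igf1r, the main receptor of IGF1, had 8.04, 8.09 and 8.13 in MG cultures, against 8.43, 8.20 and 7.77 in PBS cultures. The MG values were close together and fell inside the wider PBS range, where replicate 3 was the lowest of the 6. MG minus PBS came to -0.05 (SE 0.17, interval -0.44 to 0.35). Its sign turned without PBS replicate 1, at 0.10, while without both arrays numbered 3 it was -0.25 (interval -0.58 to 0.09). Igf2r had 7.41, 7.39 and 7.77 in MG cultures, against 7.71, 7.46 and 7.45 in PBS cultures. MG replicate 3 was the highest and the other 2 MG values were the lowest of the 6. The difference was -0.01 (interval -0.36 to 0.33), while omitting MG replicate 1 gave 0.04, omitting MG replicate 2 gave 0.05 and omitting PBS replicate 1 gave 0.07.

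Both ligand genes were near the reference level. Igf1, a growth factor made in the liver and by many local cells, had 5.16, 5.54 and 4.81 in MG cultures, against 5.16, 5.27 and 5.23 in PBS cultures. MG replicate 3 was below the reference level of 5.02, and the MG group held the highest and the lowest value. MG minus PBS came to -0.05 (SE 0.18, interval -0.47 to 0.37), and to 0.13 without MG replicate 3. Igf2, the imprinted fetal growth factor that is expressed from the paternal allele in most mouse tissues, had 5.69, 5.67 and 5.51 in MG cultures, against 5.81, 5.71 and 5.57 in PBS cultures. All 6 values were above the reference level and the groups overlapped. The means differed by -0.08 (SE 0.12, interval -0.36 to 0.21). Igf2 had the lowest difference of the 10 genes. Its sign held in all 16 alternatives, but omitting 1 array gave values from -0.14 (PBS replicate 3) to -0.018 (MG replicate 3).

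Markers of cells known to make IGFs in the brain were in part below the reference level and in part above it. Of 8 microglia and macrophage markers, 4 had MG and PBS means under the reference level (Aif1, Tmem119, Itgam and Ptprc). Cx3cr1, P2ry12 and C1qa were above it on all 6 arrays. The mean of that list lay between 4.75 and 4.87 in MG and between 4.81 and 4.90 in PBS. Of 6 choroid plexus markers, Kl and Clic6 were below it in both groups, while Otx2 and Aqp1 were above it on all 6 arrays. The list mean was 4.86 to 4.99 in MG and 4.91 to 4.99 in PBS. Its members moved both ways, with 3 higher and 3 lower in MG. Ttr, for one, had 5.01, 4.68 and 4.70 in MG cultures, against 5.14, 5.21 and 5.16 in PBS cultures, and Aqp1 differed by 0.23. Of 7 endothelial markers, Cldn5 and Tek were below it in both groups and 4 were above it in both. Among these 4, Kdr and Flt1 were above it on all 6 arrays. The list mean was 5.08 to 5.38 in MG and 5.11 to 5.54 in PBS. Of 10 pericyte, fibroblast and meningeal markers, 4 were below it and 5 above it in both groups. The list mean was 5.65 to 5.69 in MG and 5.61 to 5.85 in PBS. That list too was split, with 4 higher and 6 lower in MG. The smooth muscle actin gene Acta2, with the highest difference of the list at 0.76, had 10.38, 10.82 and 10.23 in MG cultures, against 9.92, 10.40 and 8.83 in PBS cultures. Col1a1 went the other way, with 6.51, 6.55 and 6.59 in MG cultures, against 7.07, 6.73 and 6.63 in PBS cultures. The groups showed no overlap in Col1a1 and Dcn, 2 of the 10, against 7.34% of all genes. In each of the other 3 lists 1 marker showed no overlap (Csf1r, Ttr and Esam). All of these markers without overlap were lower in MG, and only Col1a1 had both means over the reference level. No marker of the 4 lists passed the adjusted threshold in limma, as 0% of all genes did. The part of these cells in the Igf1 and Igf2 values was not tested. Of the mouse insulin genes, Ins2 lay between 3.48 and 4.02, below the reference level on all 6 arrays, and Ins1 was not analysed here.

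The adaptor genes had slightly higher means in MG cultures, within the spread. Irs1 had 8.49, 8.61 and 8.44 in MG cultures, against 8.48, 8.44 and 8.26 in PBS cultures. MG replicates 1 and 2 were above all PBS values, replicate 1 only barely, PBS replicate 3 was below all MG values, and MG replicate 3 lay just under PBS replicate 2. The difference of 0.12 (standard error 0.12, interval -0.16 to 0.39) was the largest of the 10 genes. Its sign held in all 16 alternatives, with values from 0.048 (PBS replicate 3 omitted) to 0.16 (PBS replicate 1 omitted) when 1 array was left out. A second probe set of Irs1, not used because its mean was lower, lay between 4.90 and 5.47 and differed by 0.06.

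Irs2, the adaptor whose gene is induced by FOXO factors in liver, had 8.53, 8.87 and 9.38 in MG cultures, against 8.89, 8.72 and 8.94 in PBS cultures. The MG cultures spanned a wider range than the PBS cultures and held both the highest and the lowest value. The means differed by 0.08 (SE 0.21, interval -0.41 to 0.56). Omitting MG replicate 3 gave -0.15, and omitting the 2 arrays numbered 3 gave -0.11 (interval -0.50 to 0.29).

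Among the binding protein genes, Igfbp2 was the steadiest. It had 11.76, 11.64 and 11.58 in MG cultures, against 11.80, 11.85 and 11.49 in PBS cultures. The lowest value of each group was replicate 3. The means differed by -0.05 (SE 0.14, interval -0.37 to 0.26), and by 0.02 without PBS replicate 2. In the mouse Igfbp2 lies beside Igfbp5 on chromosome 1, with 0 annotated genes between them and the pair transcribed towards each other.

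Igfbp4, an inhibitory binding protein that the protease pappalysin cleaves, had 9.44, 9.76 and 9.14 in MG cultures, against 9.54, 9.61 and 8.94 in PBS cultures. The 2 arrays numbered 3 were the lowest of the 6. The group means were 9.45 ± 0.31 in MG and 9.37 ± 0.37 in PBS (SD, n = 3 each), which differ by 0.08 (SE 0.22, interval -0.43 to 0.60). Omitting MG replicate 2 gave -0.07 and omitting PBS replicate 3 gave -0.13.

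Igfbp5, a binding protein that also attaches to extracellular matrix, varied most. It had 9.67, 10.04 and 7.84 in MG cultures, against 9.78, 9.71 and 8.05 in PBS cultures. Replicate 3 was far below the other 2 in each group, 3.55-fold below the lower of the other 2 in MG and 3.16-fold in PBS, while the remaining 4 values lay between 9.67 and 10.04. The group means of 9.19 ± 1.18 in MG and 9.18 ± 0.98 in PBS (SD, n = 3 each) were almost equal and differed by 0.00 (SE 0.63). The interval ran from -1.46 to 1.47, that is from 2.75-fold lower to 2.76-fold higher in MG. Without both arrays numbered 3 the difference was 0.11 with an interval from -0.28 to 0.50. Omitting MG replicate 3 alone gave 0.67 and omitting PBS replicate 3 alone gave -0.56, and the value was -0.24 when MG replicate 1 was omitted and -0.42 when MG replicate 2 was.

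No gene of the 10 passed the test between groups. In limma's moderated test, with Benjamini-Hochberg adjustment over 22180 genes, 0 of 10 were past an adjusted p of 0.05, where 0% of all genes were. At an unadjusted p under 0.05 there were also 0 of 10, against 3.21% of all genes, and the smallest unadjusted p was 0.366, for Irs1. Exact two-sided permutation tests over the 6 arrays gave p between 0.3 and 1.0, where 3 against 3 cannot go below 0.1. The groups overlapped in 10 of 10 genes, while 7.34% of all genes showed no overlap. Means were higher in MG for 4 genes and lower for 6, against 53.8% higher among all genes, and the median difference was -0.02, against 0.01 over all genes. The p-values measure the spread among 3 cultures per group, and fewer cells of a type and less RNA per cell cannot be told apart in bulk RNA. Leaving out 1 array turned the sign of the difference for 8 of the 10 genes, as given above.

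**Figure D2:**
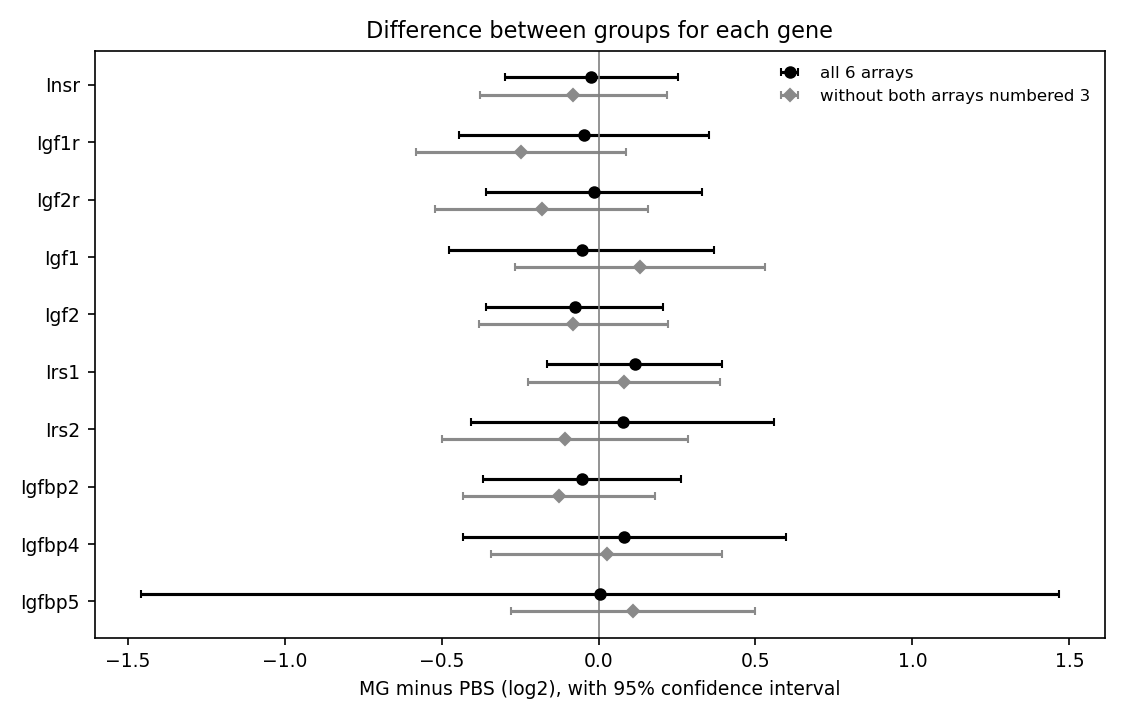
Log2 difference, MG minus PBS, of each gene with its 95% confidence interval in limma, from all 6 arrays (black circles) and without both arrays numbered 3 (grey diamonds). Every interval includes 0, and that of Igfbp5 narrows from -1.46 to 1.47 with all arrays to -0.28 to 0.50 without those 2.

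The spread over the 6 arrays set Igfbp5 apart from the other 9 genes. Its SD over the 6 arrays was 0.97, and only 17 of the 13704 genes with both means over the reference level had a larger one. Igfbp4 (SD 0.31) and Irs2 (0.28) were above 86.0% and 82.5% of those genes. Insr (0.09), Igf2 (0.11) and Irs1 (0.11) were among the steadier genes, above 12.1%, 19.1% and 21.7% of them. Igf1r (0.21), Igf2r (0.16), Igf1 (0.23) and Igfbp2 (0.14) lay between these.

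**Figure D3:**
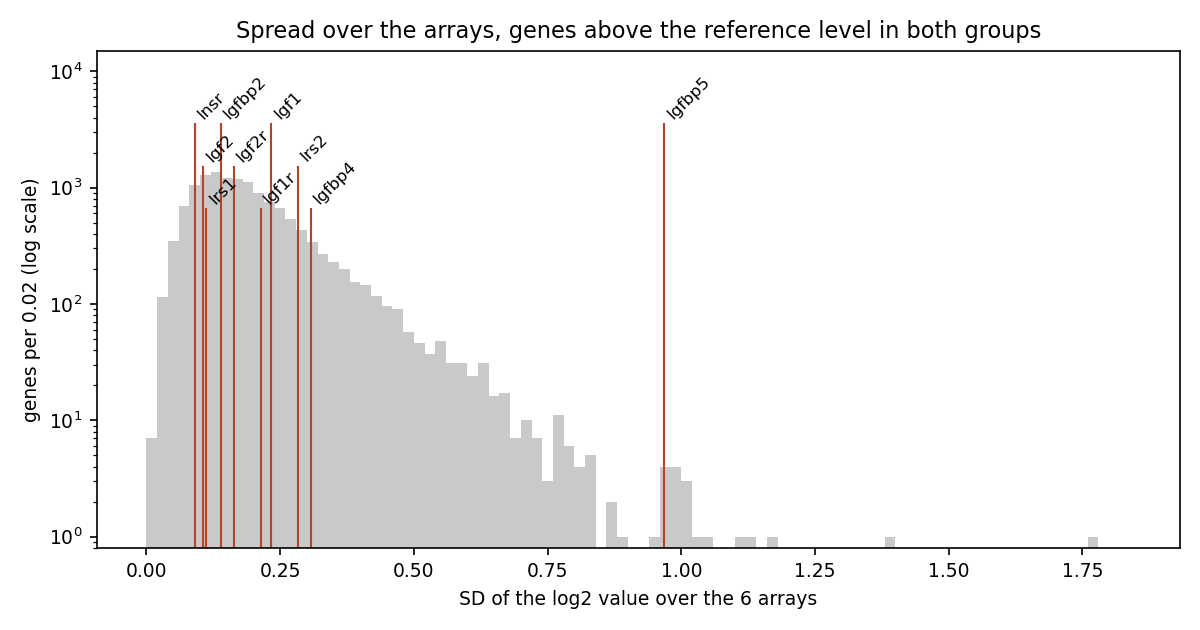
Histogram of the SD of the log2 value over the 6 arrays for the 13704 genes whose MG and PBS means exceeded the reference level, with the number of genes per bin on a log scale and a line for each of the 10 genes. Igfbp5, at 0.97, lies in the sparse right tail, and the other 9 genes lie between 0.09 and 0.31.

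Of the 10 genes, 5, Igf2, Irs1, Igfbp2, Igfbp4 and Igfbp5, were lowest on the array numbered 3 in both groups. Among all genes tested, 21.2% showed this order. Insr and Irs2 were highest on the array numbered 3 in both groups, as were 19.6% of all genes. After quantile normalisation the order of these 7 genes was the same. When each array was centred on its median the 5 low genes remained the lowest, while Insr and Irs2 were no longer the highest in both groups. All 14 replication and S phase markers and all 11 mitosis markers were highest on the arrays numbered 3. The mean of the S phase markers, relative to the 6-array mean, was 0.47 on MG replicate 3 and 0.43 on PBS replicate 3, and between -0.37 and -0.12 on the other 4. Astrocyte markers were lowest there in 6 of 9 genes, with a mean of -0.33 on MG replicate 3 and -0.36 on PBS replicate 3, and between -0.04 and 0.26 elsewhere. Among them the water channel gene Aqp4 had 10.28, 10.27 and 8.60 in MG cultures, against 9.84, 10.08 and 8.61 in PBS cultures. The astrocyte filament gene Gfap did not share the order in PBS, with 7.16, 6.74 and 5.56 in MG cultures, against 5.95, 6.73 and 6.39 in PBS cultures. Low means on these 2 arrays were not particular to astrocyte markers. Oligodendrocyte lineage markers had -0.22 and -0.13, with 4 of 8 lowest and 1 highest in both groups. Endothelial markers had -0.23 and -0.21, with 2 of 7 lowest. Neural stem cell and radial glia markers had 1 of 11 lowest and 3 highest. The part of these differences between arrays in the Igfbp5 values was not tested.

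Igfbp5 was among the genes that lay farthest from their group on these arrays. On MG replicate 3 it was 2.01 below the mean of MG replicates 1 and 2, and on PBS replicate 3 it was 1.69 below that of PBS replicates 1 and 2. Of the 13704 genes above the reference level, only the small RNA genes n-R5s136 and Snora44, named after their values were seen, were at least 1.69 below on both arrays. Igfbp4 was 0.46 below in MG and 0.63 below in PBS, and 439 genes, itself included, were at least 0.46 below on both arrays. Igfbp2, the chromosomal neighbour of Igfbp5, was 0.12 below in MG and 0.34 below in PBS. Of the 100 other pathway genes tested, 28 were lowest and 22 were highest on the array numbered 3 in both groups, against 21.2% and 19.6% of all genes. The list called the mTORC1 arm had 3 lowest and 6 highest of 16. Glucose uptake and insulin-responsive metabolism had 7 lowest and 2 highest of 14. Among the 28, Pik3r3 and Slc2a1 are named after their values were seen. Pik3r3, a regulatory subunit gene of PI3-kinase, had 10.31, 10.51 and 9.52 in MG cultures, against 10.62, 10.63 and 9.32 in PBS cultures. The glucose transporter gene Slc2a1 had 11.10, 10.70 and 10.22 in MG cultures, against 11.44, 10.96 and 10.17 in PBS cultures.

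**Figure D4:**
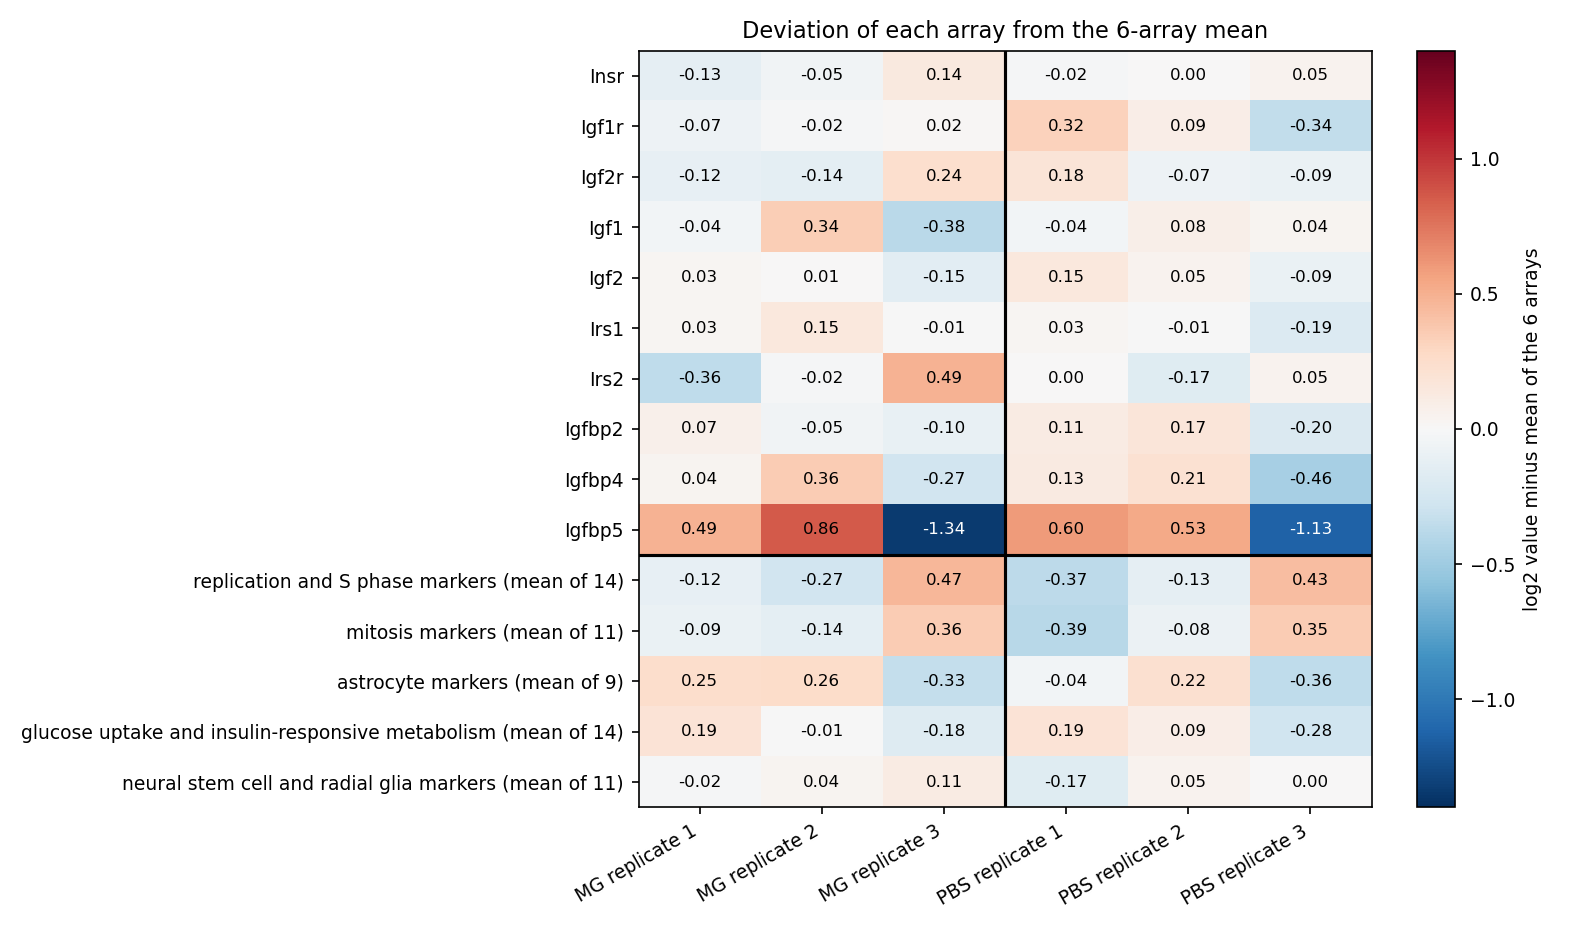
Log2 value minus the mean of the 6 arrays for the 10 genes (upper rows) and for the mean of 5 gene lists (lower rows), with MG arrays left of PBS arrays and the values printed in each cell. Igfbp5 is at -1.34 on MG replicate 3 and -1.13 on PBS replicate 3, while the S phase markers are at 0.47 and 0.43 there.

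The genes most like Igfbp5, Igfbp4 and Irs2 over the 6 arrays were looked up among 12552 of the 13704 genes above the reference level, after gene models, small RNAs and receptor families had been left out. For Igfbp5 they were Tmtc1 (Pearson correlation 0.995), Commd6 (0.995) and the fibronectin gene Fn1 (0.994), and over the 4 arrays not numbered 3 the same correlations were 0.96, 0.73 and 0.88. For Igfbp4 they were Stxbp3 (0.992), the kinase gene Map2k5 (0.992) and the ubiquitin-conjugating enzyme gene Ube2h (0.991), with 0.93, 0.94 and 0.97 over those 4 arrays. For Irs2 they were the Golgi gene Gorasp2 (0.998), Prag1 (0.995) and the deubiquitinase gene Stambpl1 (0.995), with values of 0.987 or more over the 4 arrays. For Igfbp5 and Igfbp4 these are descriptions of 6 arrays that share the split between replicate 3 and the rest. Irs2 showed little of that split in PBS, with 8.94 on replicate 3 and 8.89 on replicate 1. For all 3 genes the highest of so many correlations is high by selection.

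The rest of the pathway was read from 8 lists holding 100 tested genes, of which 89 had MG and PBS means over the reference level. None of the 100 passed the adjusted threshold, 52 had higher and 48 lower means in MG, and the median difference was 0.01. At an unadjusted p under 0.05 there was 1 gene, Igfbp1, against 3.21% of all genes. Igfbp1, named after its values were seen, encodes a binding protein that insulin represses in the liver. It had 4.51, 4.68 and 4.49 in MG cultures, against 5.10, 4.78 and 5.07 in PBS cultures (adjusted p 0.9998 in limma). Both of its means were under the reference level, so no size of the difference is given. The groups showed no overlap in Igfbp1, Mtor and Rps6, 3 of 100 genes, against 7.34% of all genes.

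Of the 6 other binding protein genes, 2 had higher and 4 lower means in MG. Igfbp3, the main carrier of IGFs in blood, had 11.48, 11.62 and 11.82 in MG cultures, against 11.86, 11.87 and 11.65 in PBS cultures. Only the replicate 3 values of the groups crossed. The means differed by -0.15 (SE 0.14, unadjusted p 0.300 in limma), and without both arrays numbered 3 by -0.31 with an interval from -0.62 to -0.0039. The adjusted p there was 0.9995, and 1067 genes had an unadjusted p under 0.05 in that fit. With only MG replicate 1 omitted the difference was -0.069, and with arrays centred on their median it was -0.11. Igfbp6 differed by -0.05.

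The list called binding protein proteases and their inhibitors had lower means in MG in 9 of 10 genes, with a median of -0.05. Over all genes 53.8% had higher means. Among the 9 were Pappa2 and Adam28, whose MG and PBS means were under the reference level. The 9 also held the insulin-degrading enzyme gene Ide (-0.04) and the carboxypeptidase gene Cpd (-0.01), which are not known as proteases of binding proteins. Pappa, the pappalysin gene, had 4.85, 5.27 and 4.98 in MG cultures, against 5.42, 5.16 and 5.49 in PBS cultures, with MG replicate 2 inside the PBS range. The means differed by -0.32 (SE 0.15, unadjusted p 0.0696 in limma), and both group means were near the reference level. Ctsd, a lysosomal protease gene, differed by -0.09. The list median was -0.18 without both arrays numbered 3.

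Of 18 tested ligands, receptors and adaptors beyond the 10, 10 had higher and 8 lower means, with a median of 0.02. The adaptor gene Crk differed by -0.15 and Socs1, a suppressor of cytokine and insulin signals, by -0.15. The list called IGF2 RNA-binding and imprinted neighbours had 5 tested genes, Igf2bp3, Airn, Slc22a2, Plagl1 and Ctcf. Igf2bp3, which encodes an RNA-binding protein of Igf2 mRNA, had 7.20, 7.27 and 7.70 in MG cultures, against 6.77, 6.68 and 7.38 in PBS cultures. PBS replicate 3 lay inside the MG range. The means differed by 0.45 (SE 0.22, unadjusted p 0.0729, adjusted p 0.9998 in limma). Without both arrays numbered 3 the difference was 0.51 (unadjusted p 0.00568, adjusted p 0.9995 in limma). In that fit 1067 genes had an unadjusted p under 0.05, and Igf2bp3 was named for its small p with all arrays. Omitting 1 array gave 0.30 (MG replicate 3) to 0.67 (PBS replicate 3). Ctcf, which encodes the insulator protein of the Igf2 and H19 locus, differed by 0.06.

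The intracellular arms were centred near 0. PI3-kinase and AKT genes had 7 higher and 9 lower means of 16, with a median of -0.03. Inppl1, a lipid phosphatase gene that opposes PI3-kinase, differed by 0.15 and the regulatory subunit gene Pik3r2 by 0.17. In the list called the mTORC1 arm 13 of 16 genes had higher means, against 53.8% of all genes, with a median of 0.06. That list mixes activators and inhibitors of mTORC1 and also holds Rictor, a gene of the mTORC2 complex. The count therefore gives no direction of mTORC1 activity. Omitting MG replicate 3, or both arrays numbered 3, gave a list median of -0.03. Eif4ebp1, the translation repressor that mTORC1 inactivates, differed by -0.21 and the ribosomal protein gene Rps6 by -0.13. FOXO factors and reported targets had 7 higher and 8 lower means, with a median of -0.01, while omitting PBS replicate 2 gave 0.09 and omitting MG replicate 3 gave 0.06. Fbxo32, the atrogene that FOXO factors induce in muscle, differed by -0.39 (standard error 0.20, unadjusted p 0.0870 in limma) and Foxo3 by 0.22. Genes of glucose uptake and insulin-responsive metabolism had 8 higher and 6 lower means, with a median of 0.01. The Rab regulator gene Tbc1d1 differed by -0.21 and the glycogen phosphorylase gene Pygb by 0.22, while omitting PBS replicate 3 gave 0.0058 and omitting MG replicate 3 gave 0.47 for Pygb. The 16 genes named by rule from these lists had unadjusted p between 0.0696 and 0.720.

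**Figure D5:**
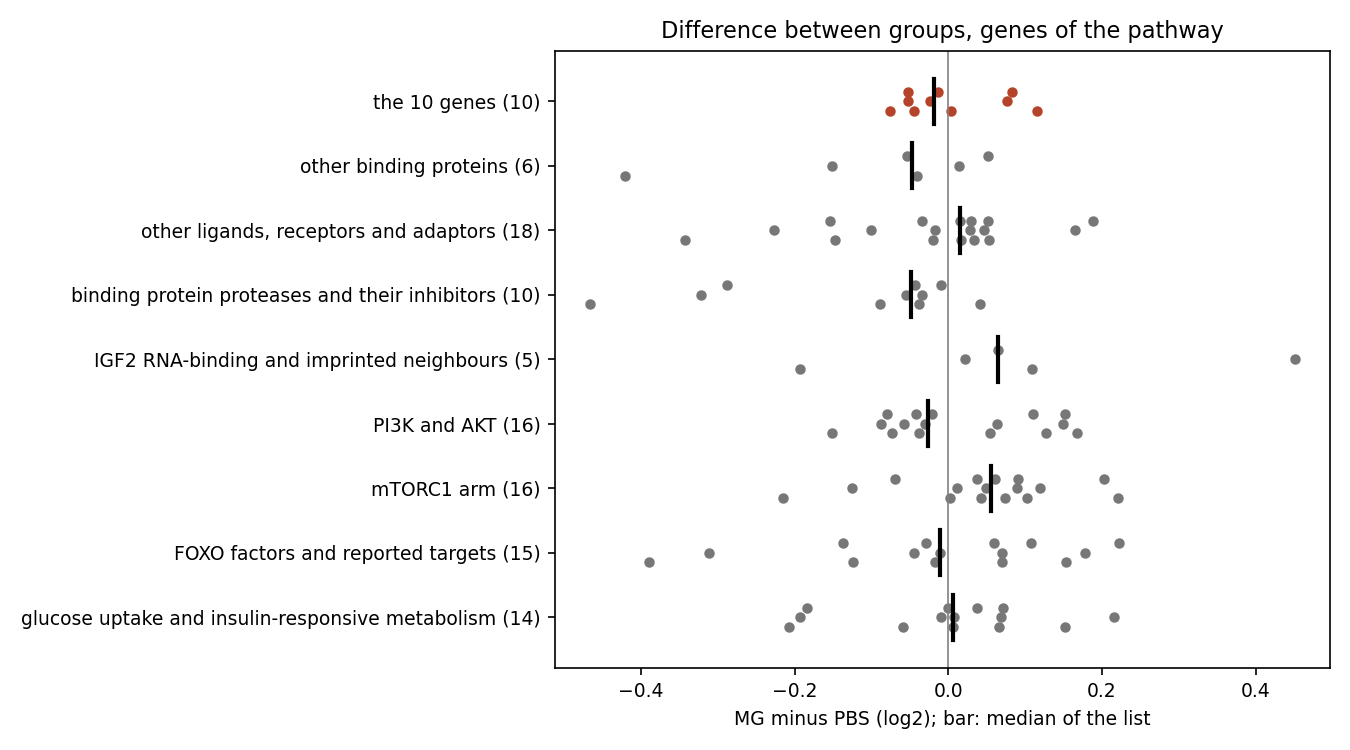
Log2 difference, MG minus PBS, for each tested gene of the 10 genes described here (red) and of 8 lists of the wider pathway (grey), with a bar at each list's median and the number of genes in brackets. The 10 genes lie between -0.08 and 0.12, and the medians of the 8 lists between -0.05 and 0.06.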

How the data were processed

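The authors deposited 1 log2 value per probe set and array, between 0.73 and 13.81, and the array medians lay between 5.25 and 5.42. The log2 scale was inferred from this range. Per the submitters' processing notes the software was Partek 6.6. Background correction, normalisation and summarisation: not given in the sources used here. Of 41345 probe sets, 23521 named 1 gene by the platform annotation, 1814 several and 16010 none. Symbols were updated through RefSeq (GRCm38.p6). Per gene the probe set with the highest mean over the 6 arrays was used. Of the 10 genes only Irs1 had a second, and the probe set shared by Irs2 and another gene was left out. No dim gene was removed. MG was compared with PBS in limma 3.58.1 under R 4.3.3 by two-sided moderated tests (lmFit, then eBayes) without covariates, with Benjamini-Hochberg adjustment over 22180 genes, a threshold of 0.05 and 95% intervals. Standard errors of the differences had a median of 0.15, and the number of arrays limits the precision. The fit was tested on simulated data. The 16 alternatives are in the closing section.

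The genes and lists were chosen with earlier results of these data known. Named by rule were the 10 genes, up to 2 genes per list with the smallest unadjusted p above the reference level, and the 3 genes most correlated with each of the 3 most variable of the 10. Of 110 listed symbols, 100 were tested, and the others were not analysed here. Promoter windows were found for 9 of the 10 genes. Figures were drawn with matplotlib 3.10.9. Sample titles say primary neurospheres and descriptions say secondary.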

Additional observations from a re-analysis of the deposited data

How the results depend on the processing

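Under all 16 alternatives 0 genes, 0 of the 10 and 0 of the 100 pathway genes passed the adjusted threshold in limma. The number with an unadjusted p under 0.05 ran from 276 of 14171 genes (dim genes left out) to 1163 of 22180 (array weights). It was 712 of 22180 in the fit reported and 416 of 22180 without PBS replicate 1. Of 160 values of the 10 genes, 141 kept their sign and 19 turned it. With arrays centred on their median Insr was at 0.018 and Igf2r at 0.028, with array weights Igf1 was at 0.11 and Igfbp6 at 0.021, and with quantile normalisation Igfbp5 was at -0.024. Without both arrays numbered 3 Igf1 was at 0.13, Irs2 at -0.11, Igfbp6 at 0.036, Inppl1 at -0.023 and Foxo3 at -0.030, and Tbc1d1 was at 0.015 from its dimmer probe set. With 1 array left out Insr ran from -0.099 to 0.034, Igf1r from -0.23 to 0.10, Igf2r from -0.14 to 0.072, Igf1 from -0.24 to 0.13, Irs2 from -0.15 to 0.28, Igfbp2 from -0.17 to 0.017, Igfbp4 from -0.13 to 0.24, Igfbp5 from -0.56 to 0.67, Igfbp6 from -0.16 to 0.075 and Pik3r2 from -0.017 to 0.30. Among named genes whose sign held whenever 1 array was left out, the range was -0.14 to -0.018 for Igf2, 0.048 to 0.16 for Irs1, -0.24 to -0.069 for Igfbp3, -0.21 to -0.11 for Crk, -0.21 to -0.068 for Socs1, -0.44 to -0.23 for Pappa, -0.12 to -0.047 for Ctsd, 0.30 to 0.67 for Igf2bp3, 0.026 to 0.095 for Ctcf, 0.055 to 0.25 for Inppl1, -0.34 to -0.096 for Eif4ebp1, -0.17 to -0.094 for Rps6, -0.59 to -0.26 for Fbxo32, 0.055 to 0.34 for Foxo3, -0.31 to -0.12 for Tbc1d1 and 0.0058 to 0.47 for Pygb. The cause of these moves was not tested. Of 144 list medians, 7 moved by more than 1 SD.

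Arrays with the same replicate number deviated together with correlations over all genes of 0.22, 0.040 and 0.45 for numbers 1, 2 and 3, and over genes above the reference level of 0.33, 0.12 and 0.63. MG replicate 1 correlated best with PBS replicate 2 (0.26, and 0.46 above the reference level) and MG replicate 2 with PBS replicate 1 (0.23 and 0.37). The numbers were not taken as pairs, a choice that rests on the correlation over all genes for number 2. The deviations within a group cancel out, so these correlations depend on each other and that value alone cannot decide on pairing. With the replicate number as a block 0 genes passed, 1063 had an unadjusted p under 0.05, and the interval of Igfbp5 was -0.34 to 0.35, against -1.46 to 1.47 without the block. Igf2bp3 then had an unadjusted p of 0.0076 (interval 0.16 to 0.74, adjusted p 0.9992 in limma). Signals near the reference level, as of Igf1, Pappa and Igfbp1, limit what could be seen there.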
